A study of Arabidopsis thaliana with 4 samples.

Results

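A continuous stretch of Arabidopsis thaliana chromosome 4, from locus AT4G15600 to AT4G20500, was followed gene by gene on 4 microarrays. Its members are the probe sets with 1 annotated gene in this range and a signal of at least 30 on 1 or more arrays. This rule gave 155 probe sets for 152 genes. Over the whole series 13333 genes have a 1-gene probe set, and 7103 genes have one with a signal of at least 30 on 1 or more arrays. The array holds 22746 probe sets that are not controls. Another 125 probe sets with 1 gene in the range stayed under 30 on every array. The members nearest the threshold were AT4G17020, with a highest signal of 31.5, on the inside and AT4G18260, at 28.9, on the outside. The members were selected on locus and on this signal, and the stretch itself was chosen by low signals seen for several of its genes on the array labelled enhancer trap, so every value that sets this array against the others is given as a description, with no test.

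The samples were whole seedlings of 14 days, grown on vertical plates in long days (16 h light, 8 h dark) at 24 °C after 2 days of cold, all listed with a Col-0 background. One array came from a line labelled as a CESTA (CES) enhancer trap, which the labels also tag as a gene knockout, 2 arrays from a T-DNA knockout line of CES, and 1 from Columbia-0 wild type. CES is a bHLH transcription factor that acts in the response to brassinosteroids. Its signal was 4124 on the array labelled enhancer trap, 7.29 and 5.35 on the knockout arrays and 0.533 on the wild-type array, which goes against the knockout tag of the first line. The knockout and wild-type values all lie under the background level of 10.6 defined below and have no order among themselves. They therefore do not show whether CES was lower in the knockout line than in wild type. With 1 array each for the line labelled enhancer trap and for wild type, what belongs to the line and what belongs to its array cannot be told apart. The labels do not say which cells or promoter the enhancer trap reports, nor whether separate cultures gave the knockout arrays. Precision is limited by the number of arrays, and in whole seedlings fewer cells of a type and less RNA per cell cannot be told apart.

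The array medians over all probe sets lay between 38.5 and 39.6. Of 10 organ marker genes, 4 were named by the platform annotation. The root markers PYK10 and EXPA7 read 4112 and 113 on the array labelled enhancer trap, against ranges of 3308 to 3598 and 44.7 to 83.1 on the other 3 arrays. The leaf markers LHCB4.1 and LHCB4.2 read 4947 and 4924, against ranges of 5683 to 5821 and 5454 to 5825 on the other 3 arrays. The ratio of 3' to 5' GAPDH signal, a sign of RNA integrity, was 1.38 on the array labelled enhancer trap and between 1.70 and 2.01 on the others. The same ratio for actin was far larger, at 19.7 on the array labelled enhancer trap, within the range of 13.5 to 25.5 on the others. Both organ types were thus detected on every array, and the part of these differences in the results below was not tested.

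Plant genomes carry tandem arrays, groups of neighbouring copies that arise by duplication, and disease-resistance genes are a leading example. Most resistance genes encode NLR proteins, intracellular receptors with a nucleotide-binding domain and leucine-rich repeats, and one large class carries a TIR signalling domain at the front. The annotated order of this stretch holds such arrays, with RPP4 (downy mildew resistance) and SNC1 in one of them, as well as a tandem array of CC-type glutaredoxins, small thiol enzymes that in plants act with transcription factors. The genes between them serve unrelated functions, from ribosomes to photosystem assembly.

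Signals are MAS5 intensities on a linear scale. Background was taken as 10.6, the highest signal of any of 27 Bacillus control probe sets, which have no target in the plant. A member was called low where the array labelled enhancer trap lay at least 2-fold under every one of the other 3 arrays, on signal + 1. It was called high where that array lay at least 2-fold over every other array and reached 30. It was called lost where that array lay at or under background while the other 3 arrays were each at 30 or more.

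Of the 155 members, 15 were low (9.68%), 1 was high and 4 were lost. Among all 13501 probe sets with a signal of at least 30 on 1 or more arrays, 1.25% were low, 0.578% high and 0.156% lost. The log2 difference from the mean of the other 3 arrays had quartiles of -0.39 and 0.16 over the 155 members, low ones included. Over all 13501 probe sets the quartiles were -0.18 and 0.19. Because the stretch was chosen for its losses, nothing further is read from the excess of low members or from this wider spread. The other 139 members, 89.7% of the total, were neither low nor high. The same rule turned on the other arrays found 1 member at least 2-fold under all others for knockout replicate 1 (AT4G16610), 0 for knockout replicate 2 and 0 for wild type, where 0.178%, 0.0963% and 0.0444% of all 13501 probe sets met it.

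**Figure D1:**
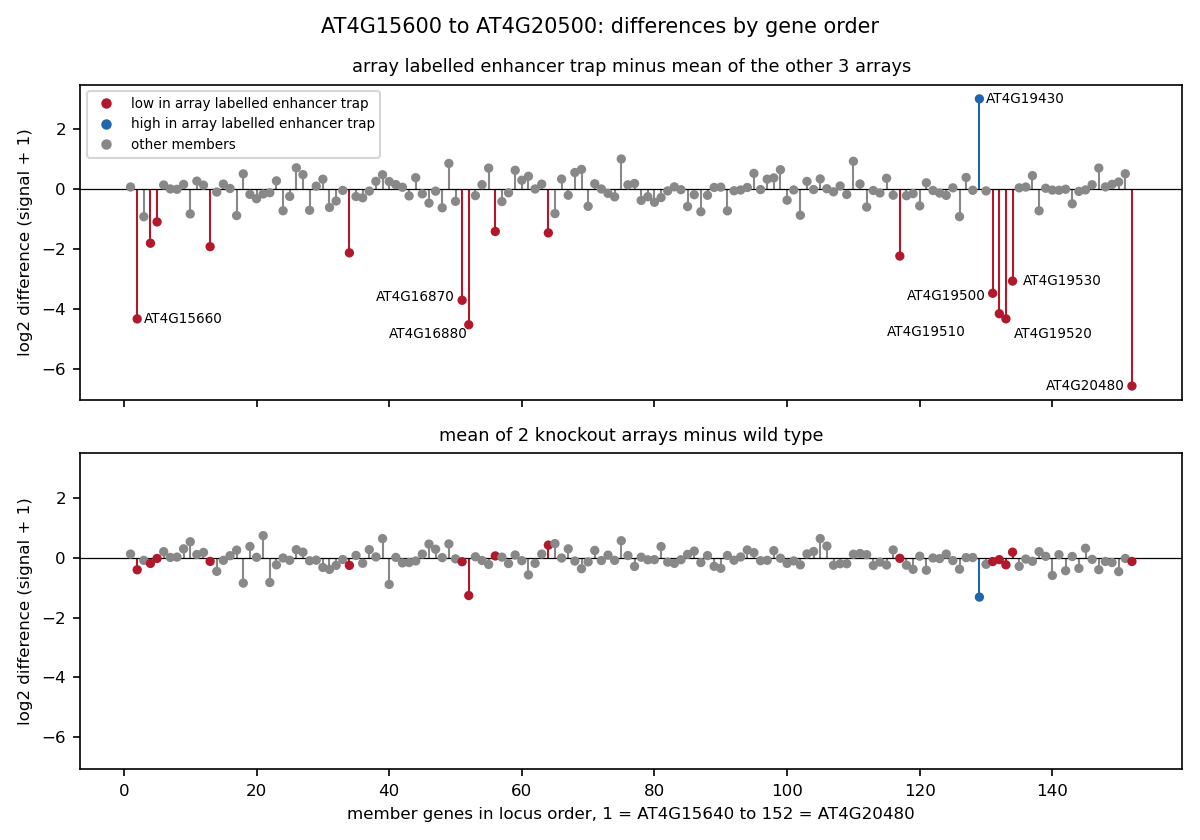
Log2 difference of signal + 1 for the 152 member genes in locus order, for the array labelled enhancer trap minus the mean of the other 3 arrays (top) and for the mean of the 2 knockout arrays minus wild type (bottom). Each point is 1 gene, with 15 low genes in red and 1 high gene in blue; the red points reach -6.58 at the top, while AT4G16880 alone among them passes below -1 at the bottom.

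The low members stood partly in runs and partly alone. In member order they formed 10 groups: 3 runs of neighbours that together hold 8 genes, and 7 genes with no low neighbour. Of the 14 steps from one low member to the next, 5 had no other member between, and 4 of those 5 had no annotated gene between either. The longest run was AT4G19500 to AT4G19530, 4 genes that follow each other directly in the annotation. With a pseudocount of 16 in place of 1, AT4G19520 was not low and this run broke, which left 2 neighbouring pairs of low members in place of 5 and no run longer than 2 genes. At the other extreme, 52 member genes without a low one lie between AT4G17240 and AT4G18970, in an interval of 202 annotated genes. The differences of these 52 genes between the array labelled enhancer trap and the mean of the others ran from -0.87 to 1.01 on the log2 scale, with a median of -0.02.

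The 4 lost members were scattered. AT4G15660 and AT4G16870 are separated by 48 member genes, AT4G16870 and AT4G19500 by 79, and AT4G19500 and AT4G20480 by 20. This scatter rests on the floor of 30 set for the other arrays. AT4G19510, the direct neighbour of AT4G19500, missed it through 1 reading of 29.3 in knockout replicate 1, and without that replicate it was lost as well, which makes 5 lost members with 1 neighbouring pair. With the floor lowered to background, an alternative chosen after the data were seen, 8 members were lost and 3 neighbouring pairs appeared.

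The resistance genes were the group with the longest run. All 5 members on the NLR list were low, of 15 genes listed and 7 with a 1-gene probe set. Their differences from the mean of the other arrays ran from -4.53 to -3.07 on the log2 scale, with a median of -4.16, beside 0.01 over all 13501 probe sets. All but AT4G19530 read under background on the array labelled enhancer trap, so these sizes are poorly fixed. With a pseudocount of 16 they were -1.63 for AT4G16880, -2.08 for AT4G19500, -1.51 for AT4G19510, -1.37 for AT4G19520 and -2.79 for AT4G19530. The list was drawn up with earlier results of these data known, and 10 of its genes are not among the members.

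AT4G19500, of the TIR-NBS-LRR family, read 5.96 on the array labelled enhancer trap, against 82.9 and 66.9 on the knockout arrays and 81.3 in wild type. It was thus at background in 1 array and well above it in 3, at least 7.65-fold lower than wild type and at least 7.05-fold lower than the knockout mean. AT4G19510, the next gene and of the same family, read 0.841 on the array labelled enhancer trap, against 29.3 and 34.0 on the knockout arrays and 32.9 in wild type. The bound on its difference was smaller, at least 3.10-fold against wild type, because the other arrays read lower.

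AT4G19520, the third TIR-NBS-LRR gene, read 0.308 on the array labelled enhancer trap, against 14.3 and 39.9 on the knockout arrays and 28.4 in wild type. Its knockout arrays were themselves 1.42 apart on the log2 scale, so its level above background is poorly fixed. AT4G19530, the last of the run, kept a clear signal of 58.3 on the array labelled enhancer trap, against 478 and 566 on the knockout arrays and 456 in wild type. It was 7.83-fold lower than wild type and 8.96-fold lower than the knockout mean, which makes it the 1 gene of the run that was reduced rather than at background.

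The run had sharp edges among the measured genes. The member before it was AT4G19450, with 6 annotated genes between. AT4G19450 read 86.7 on the array labelled enhancer trap, against 85.0 and 86.7 on the knockout arrays and 99.9 in wild type. The member after the run was AT4G19610, with 7 annotated genes between. AT4G19610 read 42.3 on the array labelled enhancer trap, against 36.8 and 40.04 on the knockout arrays and 47.0 in wild type. Neither was 2-fold from any other array, and the genes in between have no member probe set.

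**Figure D2:**
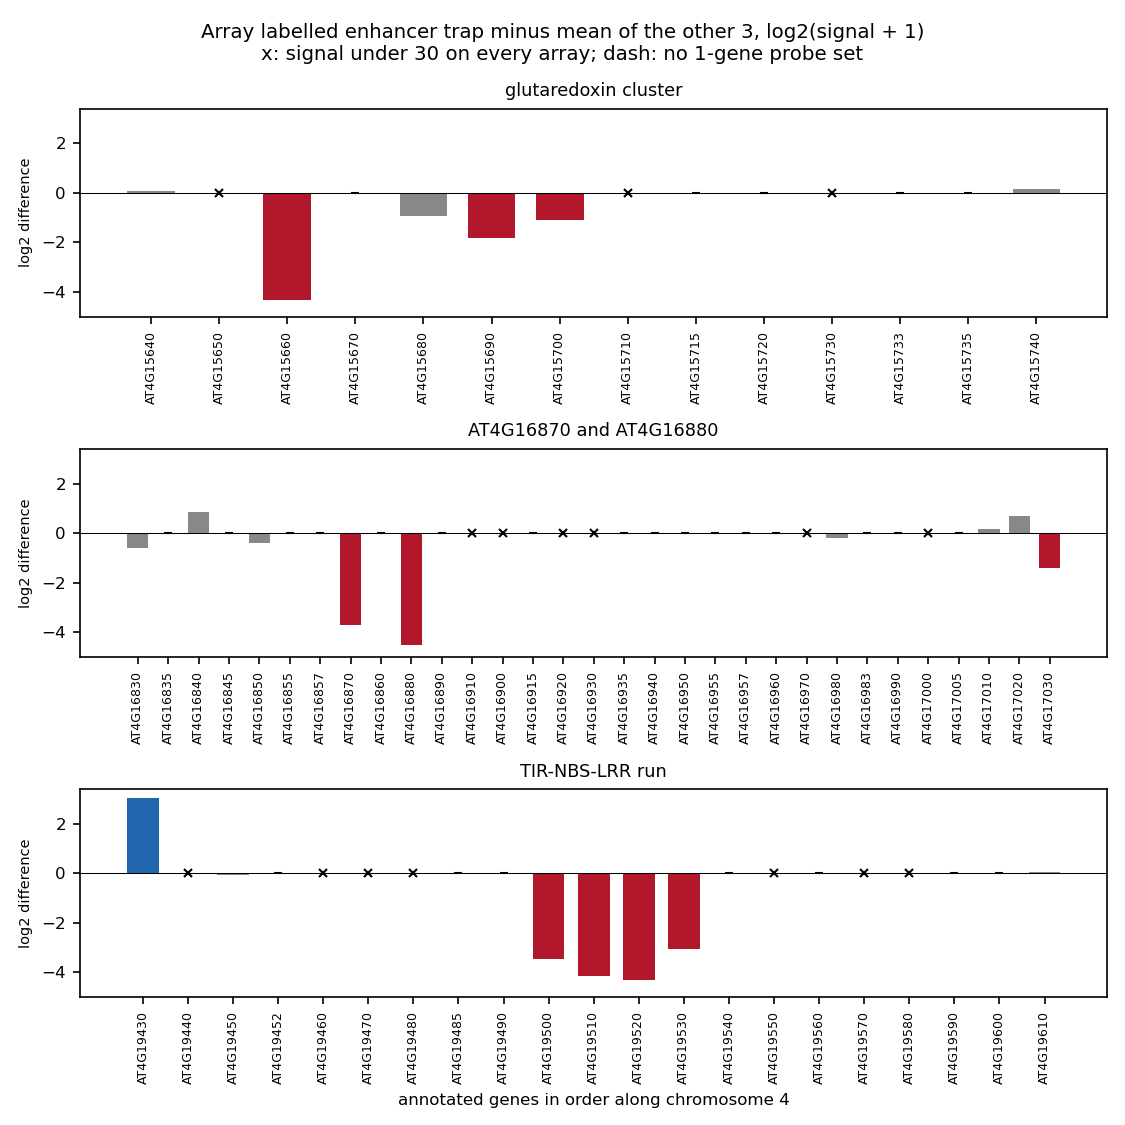
Log2 difference of signal + 1, array labelled enhancer trap minus the mean of the other 3 arrays, for all annotated genes around the glutaredoxin cluster (top), AT4G16870 and AT4G16880 (middle) and the TIR-NBS-LRR run (bottom), in annotated order. Red bars are low members, blue bars high members and grey bars other members; crosses are genes under 30 on every array and dashes are genes without a 1-gene probe set, so the 4 red bars of the bottom panel stand directly side by side.

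A second group lay in the RPP4 and SNC1 region. AT4G16870, annotated as a pseudogene, read 7.85 on the array labelled enhancer trap, against 114 and 109 on the knockout arrays and 122 in wild type. It was at least 11.5-fold lower than wild type and at least 10.5-fold lower than the knockout mean. AT4G16880, a leucine-rich repeat gene of the same array, read 0.521 on the array labelled enhancer trap, against 24.8 and 25.9 on the knockout arrays and 62.0 in wild type. Among the low members it was the 1 whose knockout arrays also differed at least 2-fold in their mean from wild type, by -1.26 on the log2 scale, and its mean signal lay under the filter of the test used for that comparison. RPP4 lies between these genes in the annotation and SNC1 directly after them, and neither has a probe set named by the annotation.

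The other listed NLR genes of this region with a 1-gene probe set stayed under 30 on every array and are not members. AT4G16920 read 0.291 on the array labelled enhancer trap, against 21.5 and 6.66 on the knockout arrays and 13.7 in wild type, and AT4G16900 read at most 8.64 on any array. AT4G16920 thus lay above background in knockout replicate 1 and wild type and under it in knockout replicate 2. No difference was called for these genes, because calls were made on members only. The member before the group, AT4G16850, read 28.8 on the array labelled enhancer trap, against 35.6 and 41.0 on the knockout arrays and 39.2 in wild type. The member after the group was AT4G16980, with 13 annotated genes between. AT4G16980 read 1785 on the array labelled enhancer trap, against 1863 and 2347 on the knockout arrays and 2041 in wild type. The 2 low genes are thus flanked on both sides by members that were not low.

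In the glutaredoxin cluster, 3 of 4 measured members were low, of 5 genes listed. AT4G15660 read 2.15 on the array labelled enhancer trap, against 61.4 and 52.9 on the knockout arrays and 75.5 in wild type, at least 7.11-fold lower than wild type. AT4G15690 read 16.4 on the array labelled enhancer trap, against 55.0 and 59.9 on the knockout arrays and 65.5 in wild type, 3.99-fold lower than wild type. AT4G15700 read 22.1 on the array labelled enhancer trap, against 47.3 and 49.1 on the knockout arrays and 48.9 in wild type, 2.21-fold lower than wild type.

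AT4G15680, the member between AT4G15660 and AT4G15690, was on the same side without meeting the rule. It read 53.2 on the array labelled enhancer trap, against 91.8 and 108 on the knockout arrays and 106 in wild type, a log2 difference of -0.92 from the mean of the others. The members on either side of the cluster were AT4G15640, at a log2 difference of 0.07, and AT4G15740, at 0.14. The log2 differences of the 4 measured glutaredoxins from the mean of the other arrays ran from -4.34 to -0.92. The lower end, AT4G15660, rests on a reading under background and was -2.12 with a pseudocount of 16. This list was also drawn up with earlier results of these data known. Genes of a tandem array can be near copies, and whether 1 probe set also detects the neighbouring genes was not tested, here or for the NLR genes.

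The other 6 low members stood outside these groups. AT4G20480, the last member of the stretch, read 0.438 on the array labelled enhancer trap, against 132 and 134 on the knockout arrays and 145 in wild type. The 3 other arrays lay within 0.13 of each other on the log2 scale, and the difference was at least 13.6-fold against wild type, the largest bound among the members. The member before it was AT4G20460, with 1 annotated gene between. AT4G20460 read 102 on the array labelled enhancer trap, against 57.7 and 86.7 on the knockout arrays and 71.8 in wild type.

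AT4G18970, of the GDSL lipase family, read 55.4 on the array labelled enhancer trap, against 271 and 257 on the knockout arrays and 267 in wild type, 4.82-fold lower than wild type. Its neighbours were unlike it. AT4G18950 differed by -0.20 and AT4G18975 by -0.22 on the log2 scale from the mean of the other arrays.

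DI21 (AT4G15910), named for its induction by drought, read 27.4 on the array labelled enhancer trap, against 109 and 98.4 on the knockout arrays and 113 in wild type, 4.12-fold lower than wild type. SWEET17, the gene directly after it among the members, which encodes a vacuolar fructose transporter, read 292 on the array labelled enhancer trap, within the range of 247 to 386 of the other arrays. EXLB1 (AT4G17030), an expansin-like gene of the cell wall, read 25.8 on the array labelled enhancer trap, against 68.6 and 74.8 on the knockout arrays and 68.5 in wild type, 2.65-fold lower than wild type. The other 3 arrays lay close together, with a range of 0.19 on the log2 scale for DI21 and 0.13 for EXLB1. That the array labelled enhancer trap lay under each of them follows from the rule for low members.

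AT4G16447 read 10.7 on the array labelled enhancer trap, just above background, against 48.0 and 46.4 on the knockout arrays and 56.4 in wild type. By its highest signal AT4G17240 was the dimmest of the low members, with 8.31 on the array labelled enhancer trap, against 23.6 and 31.6 on the knockout arrays and 20.1 in wild type. With signals this close to background it was at least 1.89-fold lower than wild type, and it was not low at a 3-fold rule.

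**Figure D3:**
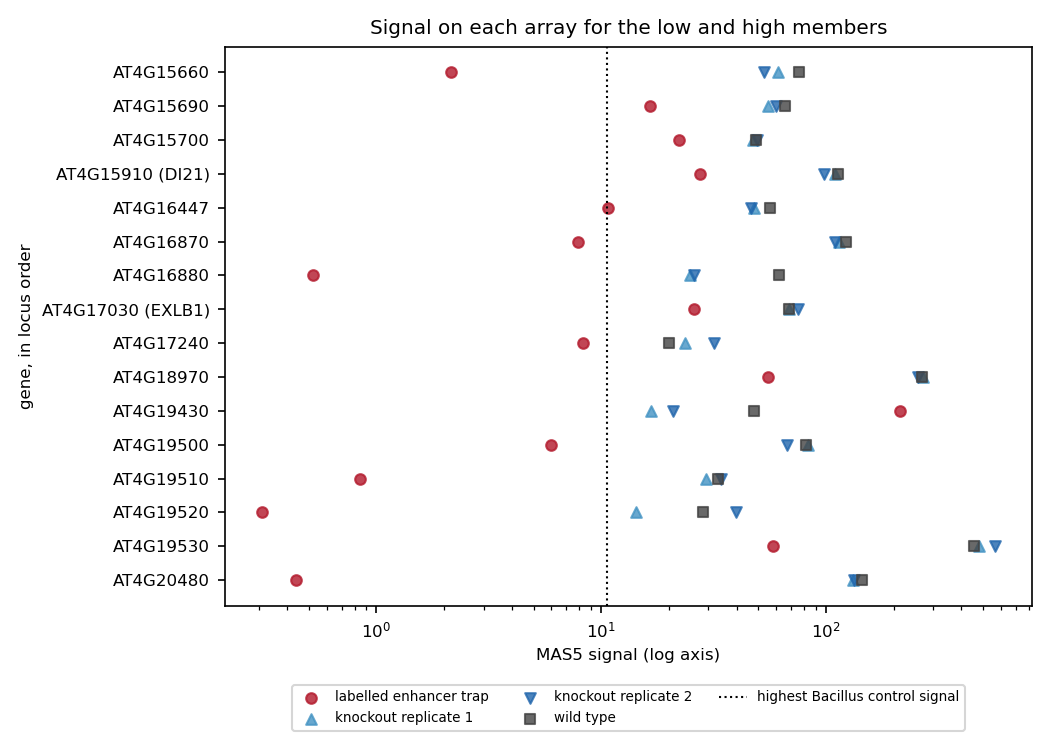
MAS5 signal on a log axis for the 15 low members and the 1 high member, in locus order from top to bottom. Red circles are the array labelled enhancer trap, triangles the 2 knockout arrays, grey squares wild type, and the dotted line is the background level of 10.6; 8 red circles lie left of the line, and no other symbol does.

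On the other 3 arrays the spread of the low members was near that of the other members. The range over the knockout and wild-type arrays had a median of 0.25 on the log2 scale for the low members. It was 0.29 for the 139 members that were neither low nor high. The 2 widest low members were AT4G19520, at 1.42, and AT4G16880, at 1.29. In all, 8 members were at or under background on the array labelled enhancer trap, against 1 in knockout replicate 1 and 0 in knockout replicate 2 and in wild type. Over all 13501 probe sets the counts were 43 on the array labelled enhancer trap (0.318%), 21 and 19 on the knockout arrays and 18 in wild type. Of the 15 low members 4 were under 50 on every array, as were 38 of all 155.

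AT4G19430 was the 1 high member, and without knockout replicate 2 there were 3, with AT4G17470 and AT4G18630 added. It read 214 on the array labelled enhancer trap, against 16.7 and 20.8 on the knockout arrays and 47.7 in wild type, 4.49-fold higher than wild type. It lies before the TIR-NBS-LRR run, with 8 annotated genes between. Between them is the member AT4G19450, already described, which did not stand apart.

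Low members also had neighbours that were not low. In locus order 18 different members stand directly beside a low one without being low. Their log2 differences from the mean of the other arrays ran from -0.92 to 0.70, with a median of -0.08, and 14 of the 18 stayed within 0.5. Of all 139 members neither low nor high, 108 stayed within 0.5. Since low neighbours were left out of the 18, nothing particular to neighbours is read from this. The widest were AT4G15680, inside the glutaredoxin cluster, and AT4G17245, directly after AT4G17240, at 304 on the array labelled enhancer trap, against 599 and 600 on the knockout arrays and 431 in wild type, a log2 difference of -0.82. On the higher side AT4G17020 differed by 0.70 and AT4G20460 by 0.51.

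The gene table gives a symbol to 14 members, which serve as a sample of the functions in the stretch and were grouped after their values were seen. DI21 and EXLB1 were low, and the other 12 were neither low nor high, with 11 of the 12 within 0.5 on the log2 scale of the mean of the other arrays. ATG8F, an autophagy protein gene, read 1453 on the array labelled enhancer trap, against 1217 and 1225 on the knockout arrays and 1195 in wild type. RALFL33, a peptide signal gene, read 659 on the array labelled enhancer trap, against 578 and 694 on the knockout arrays and 514 in wild type. These bright genes lay close to the other arrays.

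LIL3:1, a light-harvesting-like protein of chlorophyll synthesis and the 1 measured member of the 9 chloroplast and starch genes listed, read 409 on the array labelled enhancer trap, against 591 and 506 on the knockout arrays and 571 in wild type. PAM68, which acts in photosystem II assembly, read 91.1 on the array labelled enhancer trap, against 106 and 83.0 on the knockout arrays and 94.3 in wild type. MYC4, a jasmonate-response transcription factor and the 1 measured member of 12 hormone and light regulators, differed most of the 12, at 18.7 on the array labelled enhancer trap, against 28.4 and 36.3 on the knockout arrays and 30.3 in wild type. Its log2 difference was -0.73, and its signals were low on all arrays.

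ChiC, a class V chitinase and the 1 member of 9 listed chitinases, read 237 on the array labelled enhancer trap, against 177 and 160 on the knockout arrays and 182 in wild type. AT4G20230, the 1 member of 5 terpene synthases, read 62.2 on the array labelled enhancer trap, against 41.7 and 28.2 on the knockout arrays and 45.5 in wild type. Neither was 2-fold from every other array. Neither iron transporter of the list, IRT1 or IRT2, had a 1-gene probe set here.

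The knockout arrays can also be set against wild type. All 3 of these arrays entered the calls above, where low and lost members had to be brighter on each of them than on the array labelled enhancer trap, so this comparison is not independent of those calls. AT4G19430 fell in the knockout by 1.31 on the log2 scale (SE 0.285), with 16.7 and 20.8 on the knockout arrays against 47.7 in wild type (limma adjusted p = 0.0249 over 13648 probe sets). Of the 155 members 148 passed the signal filter of this test, and this gene was the 1 that passed it, where 0.183% of all tested probe sets did, 0.0586% lower and 0.125% higher. No member was higher, with 11 of 148 at an unadjusted p under 0.05 in limma in either direction, against 774 of 13648. The call on AT4G19430 was lost with a pseudocount of 16 (adjusted p = 0.0607), with median centring (0.369), without the filter (0.908) and without the intensity trend (0.523), over alternatives whose lowest adjusted p was 0.0130. Its log2 difference was -0.88 with a pseudocount of 16, -1.28 with median centring and -1.31 without the filter or the trend. The calls over the whole array moved as well, from 25 as reported to 2 with median centring, 2 without the trend, 0 without the filter (1211 of 22746 at an unadjusted p under 0.05 in limma) and 41 with quantile normalization.

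Of the 15 low members 11 could be tested, and 0 of them passed in the knockout, with log2 differences from wild type of -0.40 to 0.19. AT4G20480 differed from wild type by -0.12 (SE 0.284), AT4G16870 by -0.13 (SE 0.251), AT4G19500 by -0.12 (SE 0.291) and AT4G19530 by 0.19 (SE 0.169) on the log2 scale. The limma adjusted p was 1.00 for each of these genes, which does not show that they were equal. With the rule that chose the members as the filter, a signal of at least 30 on 1 or more arrays, all 155 members were tested. AT4G19430 was again the 1 that passed (limma adjusted p = 0.0149), and AT4G16880 differed by -1.26 (SE 0.638, limma adjusted p = 0.863). Both genes reached 30 on the wild-type array but on neither knockout array. For such genes this filter favours a lower knockout value, so the result adds no separate evidence. Over all members the knockout mean minus wild type had quartiles of -0.19 and 0.12, beside -0.16 and 0.13 over all 13501 probe sets with a signal of at least 30. The spread in the stretch was thus near that of the whole array in this comparison.

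Between the 2 knockout arrays, 4 members were at least 2-fold apart (2.58%), where 0.874% of all 13501 probe sets were. They were AT4G15810, AT4G16610, AT4G17470 and AT4G19520, none above 82.5 on any array. AT4G15810 read 26.3 in knockout replicate 1 and 82.5 in knockout replicate 2, against 31.9 in wild type. A difference of this size in a dim gene therefore occurs between arrays of 1 line.

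The rest of chromosome 4 and the other chromosomes were read by the same rule on 1-gene probe sets. On chromosome 4 before the stretch 8 of 325 probe sets were low (2.46%), and after it 2 of 573 (0.349%). On chromosomes 1, 2, 3 and 5 the share ran from 0.278% on chromosome 3 to 1.30% on chromosome 1. At a 3-fold rule 12 of the 155 members of the stretch remained, against 1 of 325 probe sets before it and 2 of 573 after it. Of 9 lost 1-gene probe sets on the 5 chromosomes, 4 were members, 1 lay after the stretch on chromosome 4, and chromosomes 1 and 5 had 2 each. Because the stretch was chosen for its losses on this same array, these contrasts restate that choice and nothing further is read from them.

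**Figure D4:**
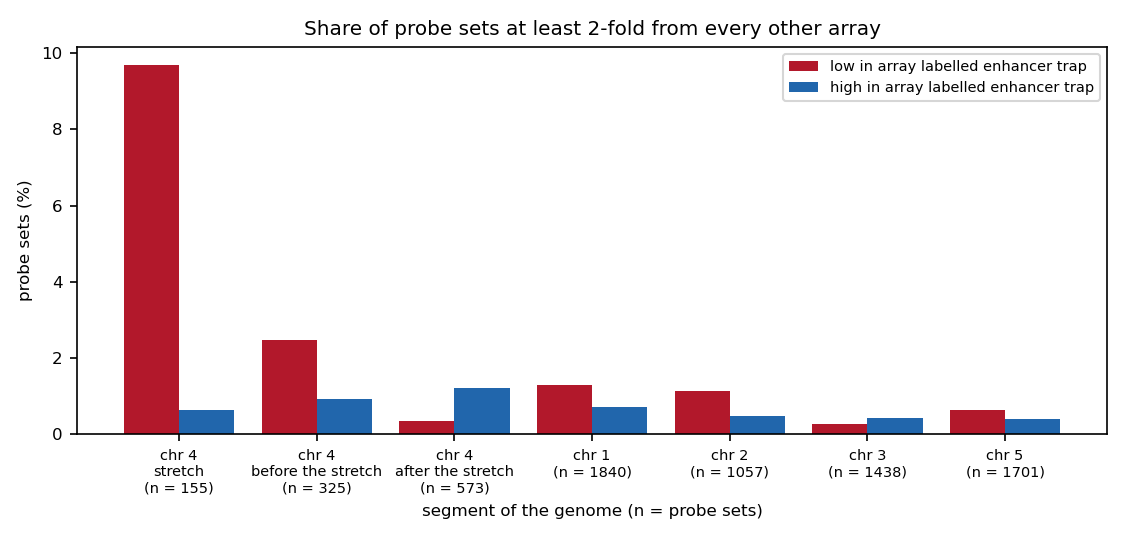
Share of probe sets, in percent, that were low (red) or high (blue) on the array labelled enhancer trap, for the stretch, the 2 other segments of chromosome 4 and the other chromosomes, with the number of probe sets under each pair of bars. The red bar of the stretch reaches 9.68%, against 2.46% before it, while its blue bar stands at 0.645%. The stretch was chosen for low signals on the array labelled enhancer trap.

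The limits of the stretch were not marked by a low gene on the outside. Towards the start of the chromosome the nearest low gene was AT4G14870, past 21 measured genes, at 119 on the array labelled enhancer trap, against 299 and 251 on the knockout arrays and 272 in wild type. Towards the end it was AT4G20860, past 5 measured genes, at 47.4 on the array labelled enhancer trap, against 147 and 165 on the knockout arrays and 149 in wild type. Both kept signals above background on all arrays.

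The genes that could be read are a minority. The gene table lists 558 protein-coding genes in the range, and 151 of them (27.1%) are members. Whether the unmeasured genes between low members were low as well was not tested. Of the 3 genes with 2 member probe sets, AT4G16180 read 86.6 and 35.1 on the array labelled enhancer trap, against 143 and 22.1 in knockout replicate 1, 144 and 35.4 in knockout replicate 2, and 144 and 40.3 in wild type, so its probe sets differed in pattern. None of the 6 member probe sets of these genes was low or high. A further probe set of AT4G17140 stayed under 30 on every array and is not a member. It read 1.33 on the array labelled enhancer trap, against 14.7 and 9.55 on the knockout arrays and 14.4 in wild type.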

How the data were processed

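Intensities were deposited by the authors as 1 linear signal per probe set, for which the submitters' processing notes name MAS5 and GCOS. Versions and detection calls are not given in the sources used here. The deposited signals have a trimmed mean (2% off each end) of 100.0 on every array, so they were already scaled. Groups follow the sample labels. The members and lists were chosen with earlier results of these data known.

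Gene names come from the platform annotation (13513 probe sets with 1 gene, 503 with several, 8730 not listed), of which 13436 matched the TAIR10.1 gene table, used for names and gene order only. Genes named are the low, high and lost members, their neighbours, list members and members past the test. Positions are not given, since no build is named for the array.

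The knockout was compared with wild type on log2(signal + 1) in R 4.3.3 with limma 3.58.1, as 3 group means over 4 arrays. Probe sets at or above the 40th percentile of mean log2 signal (4.58) were kept, leaving 13648, and eBayes used an intensity trend with Benjamini-Hochberg adjustment at 0.05. The knockout pair gives 1 residual degree of freedom beside 41.8 prior ones, and the wild-type array is assumed to vary as this pair does. The p-values thus rest on the spread of the pair, which may be technical. On simulated data of 13648 genes, 84.5% of log2 changes of 1 and 100% of log2 changes of 2 were recovered for this comparison, with 10 and 12 unchanged genes called. The simulation drew normal noise with the fitted spread of each gene, alike on all 4 arrays. These rates hold only for data that follow this model and do not give the power on the real arrays. Folds given as "at least" set the brighter side over the background level. Alternatives covered scaling, pseudocount, filter, trend, fold, background level and each knockout array. Python 3.11.15 with matplotlib 3.10.9 drew the figures.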

Additional observations from a re-analysis of the deposited data

How the results depend on the processing

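None of the 80 recomputed differences of the 16 low or high members changed sign. They came from quantile normalization, median centring, a pseudocount of 16 and leaving out either knockout array. For the pseudocount and the left-out arrays, the 2-fold rule that picked these members fixed the sign in advance. Their sizes did change. With a pseudocount of 16, AT4G20480 went from -6.58 to -3.22 and AT4G19510 from -4.16 to -1.51. AT4G19530 moved less, from -3.07 to -2.79. The count of 15 low members lay between 12 and 16 under every alternative run; AT4G15700, AT4G17030 and AT4G17240 were not low at 3-fold, and AT4G15700, AT4G17240 and AT4G19520 not with a pseudocount of 16, which left 2 neighbouring pairs of low members in place of 5. Scaling moved the median of all probe sets by 0.02 or less in the array labelled enhancer trap. The 4 lost members with 0 neighbouring pairs became 8 with 3 pairs when the other arrays had only to exceed background, and 1 pair appeared with median centring. Leaving out a knockout replicate gave 4 to 5 lost members with 0 to 1 pairs, 15 to 16 low members, and 1 to 3 high members, AT4G17470 and AT4G18630 joining without knockout replicate 2. Members 2-fold apart between the knockout arrays, 4 as reported, were 2 at 3-fold and 2 with a pseudocount of 16. Low probe sets before the stretch, 8 as reported, were 1 at 3-fold and 1 with a pseudocount of 16, and 8 to 12 without a knockout replicate. In the knockout against wild type, 0 members were lower with a pseudocount of 16, 0 without the filter, 0 at the 60th percentile filter, where AT4G19430 was not tested, 0 with median centring and 0 without the trend, against 1 as reported. The cause of these shifts was not tested. Leaving out a knockout array leaves 0 residual degrees of freedom, so no such test was made. No paired analysis was possible because the groups share fewer than 2 replicate numbers. Signals near the background of 10.6 have no order among themselves.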

Other observations

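Of the 125 probe sets of the same range that stayed under 30, 95 were at or under background on the array labelled enhancer trap, against 97 and 91 on the knockout arrays and 92 in wild type. At or under background on 1 array alone were 2 probe sets for the array labelled enhancer trap (AT4G17483 and AT4G19380, chosen after their values were seen), 2 for knockout replicate 1, 0 for knockout replicate 2 and 3 for wild type. Single probe sets still differed at these low signals. AT4G18250, also chosen after its values were seen, read 1.64 on the array labelled enhancer trap, against 15.4 and 11.96 on the knockout arrays and 8.77 in wild type.

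Another 11 probe sets list several genes of which at least 1 lies in the range, and 0 of them were low or high on the array labelled enhancer trap. Of these, 6 have all their genes in the range.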
